A study of Mus musculus with 11 samples.

Results

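The 10 genes described here encode tandem-pore potassium channels: Kcnk1, Kcnk2, Kcnk3, Kcnk5, Kcnk6, Kcnk9, Kcnk10, Kcnk12, Kcnk13 and Kcnk18. They were taken by name, and each was measured by 1 transcript cluster that carries that symbol alone, out of 30145 genes compared in the series. The series profiled total RNA of 3 mouse tissues (the carotid body, the adrenal medulla and, as a ganglion, the superior cervical one) from wild-type C57B6 mice of both sexes, 2 months old, with no treatment or genetic change in any group. There are 3 arrays of carotid body, each a pool from 10 mice, and 4 arrays each of adrenal medulla and ganglion, each a pool from 3 mice. The replicates are therefore pools of whole tissue, and the spread between them is that of pools and not of animals.

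Tandem-pore channels are leak channels: they let potassium out of the cell at rest and so hold the membrane potential negative. In the glomus cells of the carotid body, the TASK channels (Kcnk3 and Kcnk9) close in low oxygen or acid, which depolarises the cell and releases transmitter. TASK channels are also known in chromaffin cells of the adrenal medulla and in aldosterone-making cells of the adrenal cortex. TREK channels (Kcnk2 and Kcnk10) respond to stretch, lipids and temperature, and TRESK (Kcnk18) is opened by calcineurin and is best known from sensory neurons. The remaining members are the alkaline-opened Kcnk5, the TWIK channels Kcnk1 and Kcnk6, and the THIK channels Kcnk12 and Kcnk13.

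The family divided between the tissues. Kcnk3, Kcnk9 and Kcnk2 were highest in adrenal medulla, Kcnk10 and Kcnk18 were highest in ganglion, and no member was called higher in carotid body than in both other tissues. The carotid body mean stood between the others for Kcnk9, Kcnk3, Kcnk10 and Kcnk18. For Kcnk10 and Kcnk18 its difference from adrenal medulla (0.80 and 0.96) was not called, and for Kcnk18 the carotid body mean lay close to background. The word called is used for a gene with a log2 difference of at least 1 (2-fold) that also had an adjusted p under 0.05 (Benjamini-Hochberg over all genes) from limma, a linear model with moderated variances.

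Sequence upstream of the annotated starts is shown for 3 of the 5 members that were called, as RefSeq gives it for the GRCm38.p6 build. Each window holds the 250 bases before a start, 5′ to 3′ on the gene's strand. The table used here matched 7 of the 10 members with 11 such windows, and Kcnk3, Kcnk6 and Kcnk9 are named only. Kcnk18 and Kcnk10 are shown because both were highest in ganglion, and Kcnk2, of which 1 of 4 windows is shown, because it was highest in adrenal medulla. Capitals mark matches, on either strand, to the core of the hypoxia response element (ACGTG or GCGTG) and to the E-box CAGCTG; the other motifs searched gave none in these windows.
Kcnk18, chr19:59219398-59219647, plus strand: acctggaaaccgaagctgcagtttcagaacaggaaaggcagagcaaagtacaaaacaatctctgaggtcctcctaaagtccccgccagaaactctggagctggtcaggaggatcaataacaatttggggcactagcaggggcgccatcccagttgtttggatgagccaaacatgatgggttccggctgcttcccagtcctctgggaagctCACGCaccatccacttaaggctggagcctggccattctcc
Kcnk10 first start, chr12:98578214-98578463, minus strand: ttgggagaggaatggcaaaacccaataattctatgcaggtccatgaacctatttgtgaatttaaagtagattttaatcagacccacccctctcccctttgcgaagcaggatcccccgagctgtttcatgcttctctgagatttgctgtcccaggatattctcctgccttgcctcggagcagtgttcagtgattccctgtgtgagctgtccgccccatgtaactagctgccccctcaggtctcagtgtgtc
Kcnk10 second start, chr12:98575128-98575377, minus strand: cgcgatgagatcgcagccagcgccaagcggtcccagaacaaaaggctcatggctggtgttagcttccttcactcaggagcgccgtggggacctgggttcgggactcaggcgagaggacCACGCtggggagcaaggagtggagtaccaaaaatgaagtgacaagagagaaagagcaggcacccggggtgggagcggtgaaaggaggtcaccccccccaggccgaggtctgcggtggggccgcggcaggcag
Kcnk2 second start, chr1:189344193-189344442, minus strand: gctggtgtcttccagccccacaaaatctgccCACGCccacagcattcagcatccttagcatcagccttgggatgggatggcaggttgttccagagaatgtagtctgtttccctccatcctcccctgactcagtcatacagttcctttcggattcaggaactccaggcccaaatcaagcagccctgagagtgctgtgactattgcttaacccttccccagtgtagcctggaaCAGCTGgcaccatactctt
The Kcnk18 window holds 1 core match, beginning at base -40 from the start. The first Kcnk10 window holds none and the second holds 1, beginning at base -132. The Kcnk2 window holds 1 core match, beginning at base -219, and 1 E-box, beginning at base -19. It is the one of the 4 Kcnk2 windows that holds both: the first holds neither, the third an E-box only and the fourth 2 core matches only. Such matches are common: 38.6% of the 32851 windows of this length hold the hypoxia core and 13.0% hold this E-box, so they are given as a description of the sequence. The other motifs searched were AAGGTCA (steroidogenic factor 1; 4.08% of windows), the Phox2 homeodomain site (0.463%), TGACGTCA (cyclic AMP response; 1.55%) and TATAAA (12.4%), and none of these was found in the 11 windows of the family.

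Kcnk9, which encodes TASK-3, had the widest tissue range of the family. Its log2 expression was 16.47, 16.52, 16.75 and 16.54 on the adrenal medulla arrays, 13.19, 12.66 and 12.57 on the carotid body arrays, and 6.87, 5.60, 6.46 and 6.01 on the ganglion arrays (transcript cluster TC1500001683.mm.1). The tissues did not overlap, and the ganglion arrays lay above the background bound of 5.45, replicate 2 closest to it. This bound is set per tissue at the 95th percentile over vomeronasal receptor and keratin-associated protein genes, taken as silent in these tissues, and it is 5.35 in adrenal medulla and 5.38 in carotid body. The means were 16.57 ± 0.12 (SD, n = 4) in adrenal medulla, 12.81 ± 0.34 (SD, n = 3) in carotid body and 6.23 ± 0.55 (SD, n = 4) in ganglion. The highest and lowest tissue means thus differed by 10.34 on the log2 scale, and 8 of the 30145 genes had a larger range. Adrenal medulla exceeded ganglion 1293-fold (SE 0.24 on the log2 scale, limma adjusted p = 4.44e-10). Carotid body exceeded ganglion 95.2-fold (log2 6.57, SE 0.26, limma adjusted p = 4.03e-08) and lay below adrenal medulla by 13.6-fold (log2 -3.76, 95% interval -4.34 to -3.18). In pooled tissue, fewer cells of a type and less RNA per cell cannot be told apart, here and in every comparison that follows.

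Kcnk3, which encodes TASK-1, followed the same order with smaller steps at the lower end. It read 15.38, 14.67, 15.34 and 15.45 in adrenal medulla, 10.52, 9.93 and 10.02 in carotid body, and 9.03, 8.72, 8.28 and 8.61 in ganglion (TC0500000295.mm.1). No arrays of different tissues overlapped, adrenal medulla replicate 2 was the lowest of its group, and carotid body replicate 1 was the highest of its own, as it was for Kcnk9. The difference of carotid body from adrenal medulla was -5.05 (SE 0.23, 33.1-fold, limma adjusted p = 6.72e-08), and that of adrenal medulla from ganglion was 6.55 (SE 0.21, 93.7-fold, limma adjusted p = 3.65e-09). Carotid body exceeded ganglion by 1.50 (95% interval 1.00 to 2.00, 2.83-fold, limma adjusted p = 0.00037). TASK-1 and TASK-3 subunits can join in one channel, so the pair is set side by side: from ganglion to carotid body the log2 difference was 1.50 for Kcnk3 and 6.57 for Kcnk9, while from adrenal medulla to carotid body it was -5.05 and -3.76.

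Kcnk2, the TREK-1 gene, was high in adrenal medulla alone. The adrenal medulla arrays read 9.42, 10.12, 10.17 and 9.85, against 6.18, 6.23 and 6.22 in carotid body and 6.58, 6.41, 6.06 and 6.36 in ganglion (TC0100003778.mm.1). Carotid body and ganglion arrays overlapped near their bounds of 5.38 and 5.45, while all 4 adrenal medulla arrays stood apart. Adrenal medulla exceeded carotid body 12.8-fold (log2 difference of carotid body from adrenal medulla -3.68, SE 0.17, limma adjusted p = 9.87e-08) and ganglion 11.6-fold (log2 3.54, SE 0.16, limma adjusted p = 2.85e-08). Carotid body and ganglion differed by -0.15, with a 95% interval of -0.53 to 0.24 (limma adjusted p = 0.585).

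Kcnk10, the other TREK gene, was highest in ganglion. It read 7.996, 7.43, 7.49 and 7.80 in ganglion, 5.91, 5.79 and 5.80 in carotid body, and 4.94, 5.10, 5.04 and 5.05 in adrenal medulla, where all 4 arrays lay under the background bound (TC1200002191.mm.1). The tissues did not overlap. Ganglion exceeded carotid body 3.60-fold (log2 difference of carotid body from ganglion -1.85, SE 0.13, limma adjusted p = 1.76e-06) and adrenal medulla at least 5.04-fold, a fold taken against the bound (fitted log2 difference of adrenal medulla from ganglion -2.65, limma adjusted p = 2.34e-08). Carotid body lay above adrenal medulla by 0.80 (95% interval 0.52 to 1.08, limma adjusted p = 0.000659), under the 2-fold limit. Between adrenal medulla and ganglion the TREK pair thus differed in opposite directions, while both genes had a higher mean in ganglion than in carotid body, which for Kcnk2 did not pass the test.

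Kcnk18, the TRESK gene, shared the order of Kcnk10. Its arrays read 8.34, 7.54, 7.85 and 8.67 in ganglion, 5.53, 5.37 and 5.45 in carotid body, and 4.36, 4.62, 4.17 and 4.82 in adrenal medulla (TC1900000849.mm.1). All 4 adrenal medulla arrays and carotid body replicate 2 lay under the background bound, so its folds are lower bounds. Ganglion exceeded carotid body at least 6.26-fold (fitted log2 difference of carotid body from ganglion -2.65, SE 0.24, limma adjusted p = 1.19e-05) and adrenal medulla at least 6.74-fold (fitted log2 difference of adrenal medulla from ganglion -3.61, SE 0.23, limma adjusted p = 3.47e-07). Carotid body and adrenal medulla differed by 0.96 (95% interval 0.42 to 1.50, limma adjusted p = 0.012), just short of the limit. That difference was called without adrenal medulla replicate 2 (1.00) or replicate 4 (1.07), and with the replicate number as a block (1.11), but the carotid body mean of 5.45 ± 0.08 (SD, n = 3) is itself close to the bound of 5.38.

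**Figure D1:**
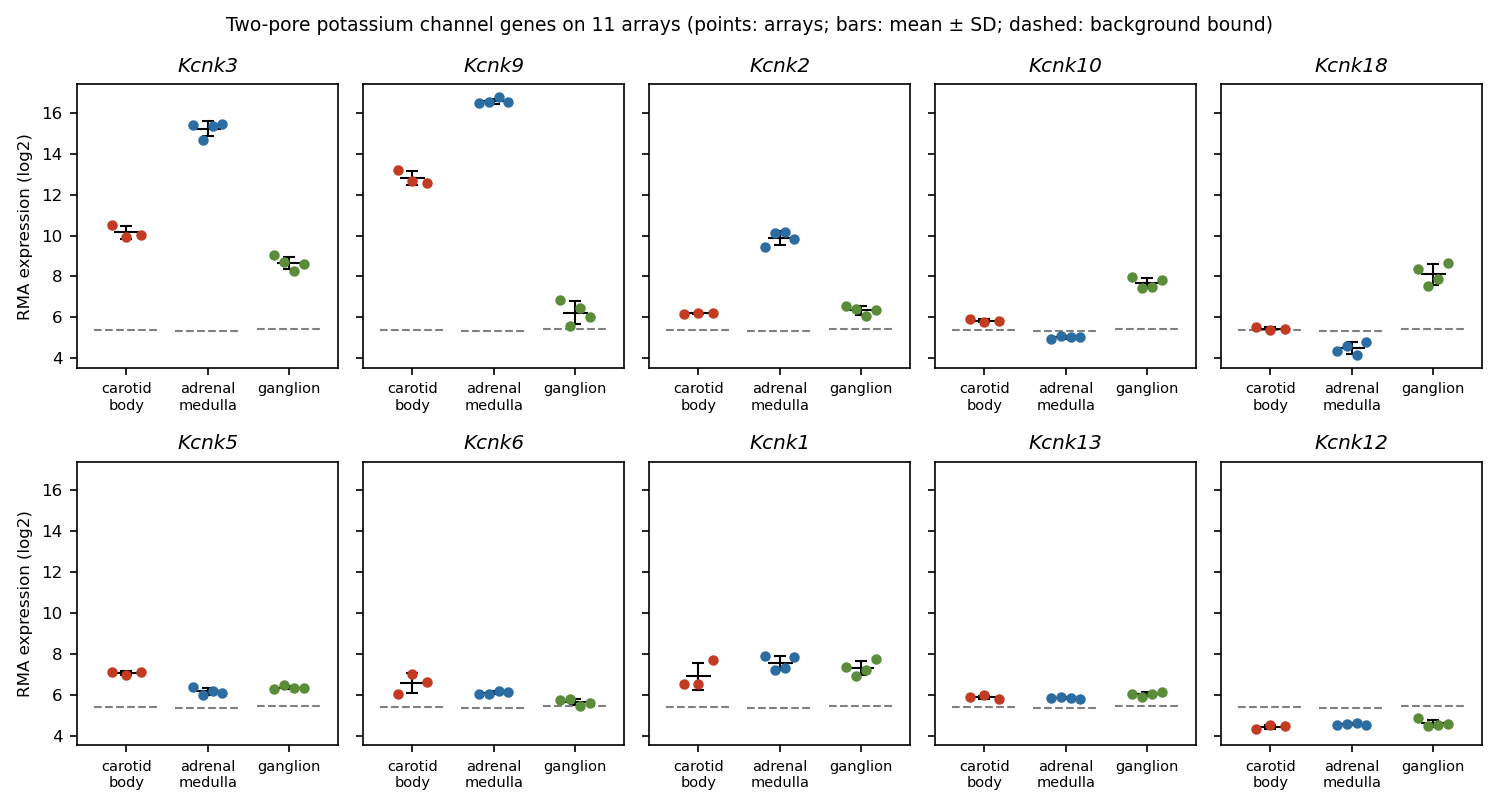
Log2 expression of the 10 channel genes on each of the 11 arrays, with 1 panel per gene; coloured points are arrays, black bars the mean ± SD and dashed lines the background bound of each tissue. Kcnk3, Kcnk9 and Kcnk2 stand highest in adrenal medulla, Kcnk10 and Kcnk18 in ganglion, and Kcnk12 lies under the bound on every array.

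Kcnk5 and Kcnk6 were the members with their highest mean in carotid body, and neither reached the 2-fold limit. Kcnk5, which encodes TASK-2, read 7.10, 6.96 and 7.11 in carotid body, 6.37, 5.99, 6.18 and 6.08 in adrenal medulla, and 6.29, 6.47, 6.30 and 6.31 in ganglion (TC1400001528.mm.1). Every carotid body array exceeded every other array. The difference was 0.90 from adrenal medulla (95% interval 0.68 to 1.11, 1.86-fold, limma adjusted p = 4.31e-05) and 0.71 from ganglion (95% interval 0.50 to 0.93, 1.64-fold, limma adjusted p = 0.000178). Adrenal medulla and ganglion overlapped and differed by -0.19 (limma adjusted p = 0.136).

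Kcnk6, which encodes TWIK-2, read 6.04, 7.01 and 6.64 in carotid body, 6.03, 6.03, 6.18 and 6.13 in adrenal medulla, and 5.75, 5.77, 5.44 and 5.60 in ganglion (TC0700002718.mm.1). Carotid body replicate 1 fell within the adrenal medulla range, and the other carotid body arrays lay above it. Carotid body exceeded ganglion by 0.92 (95% interval 0.51 to 1.34, limma adjusted p = 0.00247), and by 1.19 without carotid body replicate 1, which passes the limit. Its difference from adrenal medulla was 0.47 (95% interval 0.06 to 0.88, limma adjusted p = 0.0836). TWIK-2 is known as a potassium efflux path of macrophages. The mean level over 8 macrophage markers was 8.25 on carotid body replicate 1 against 8.77 and 8.83 on replicates 2 and 3, 8.52 to 8.78 in adrenal medulla and 7.72 to 8.54 in ganglion. The markers differed in direction: against adrenal medulla 1 was called higher in carotid body (Cd163) and 2 lower (Cd68 and C1qb). Against ganglion 1 was called higher (Cd163) and 0 lower. None of the 8 was under the bound in carotid body, and their part in the Kcnk6 values was not tested.

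Kcnk1, which encodes TWIK-1, read 6.52, 6.50 and 7.67 in carotid body, 7.88, 7.18, 7.29 and 7.84 in adrenal medulla, and 7.36, 6.92, 7.19 and 7.72 in ganglion (TC0800001572.mm.1). Adrenal medulla and ganglion overlapped. Carotid body overlapped both through replicate 3, which lay within the range of the others while replicates 1 and 2 lay below it. The carotid body mean of 6.90 ± 0.67 (SD, n = 3) differed from adrenal medulla by -0.65 (95% interval -1.33 to 0.03, limma adjusted p = 0.145) and from ganglion by -0.40 (95% interval -1.08 to 0.27, limma adjusted p = 0.364). Without carotid body replicate 3 the difference from adrenal medulla was -1.04 and was called (limma adjusted p = 0.0129), so 1 pool decides this value.

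The THIK genes showed little tissue range. Kcnk13 averaged 5.88 ± 0.08 (SD, n = 3) in carotid body, 5.84 ± 0.03 (SD, n = 4) in adrenal medulla and 6.02 ± 0.10 (SD, n = 4) in ganglion (TC1200000989.mm.1), with no difference past the adjusted p threshold. Its differences were 0.04 for carotid body from adrenal medulla (95% interval -0.12 to 0.20), -0.14 for carotid body from ganglion (-0.30 to 0.02) and -0.18 for adrenal medulla from ganglion (-0.33 to -0.03). Kcnk12 was under the background bound on all 11 arrays, with tissue means of 4.43, 4.56 and 4.60 in carotid body, adrenal medulla and ganglion (TC1700002699.mm.1), so no fold is given.

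Counted over the family by limma, 3 of 10 members were called in carotid body against adrenal medulla, where 3320 of the 30145 genes were. All 3 were lower in carotid body (4.95% of all genes) and 0 were higher (6.06% of all genes). Against ganglion 4 of 10 were called (13.9% of all genes), 2 of them higher in carotid body (5.61% of all genes) and 2 lower (8.28%). By the adjusted p alone, with no limit on size, 6, 6 and 5 of 10 members passed in the 3 comparisons, where 29.3%, 34.1% and 34.4% of all genes did. At an unadjusted p under 0.05 the members numbered 7 (4 higher and 3 lower), 6 (4 and 2) and 7 (4 and 3), where 38.4%, 41.5% and 43.4% of all genes passed. Between adrenal medulla and ganglion, 3 were higher in adrenal medulla (5.72% of all genes) and 2 lower (7.50%), so 5 of 10 members were called in either direction where 13.2% of all genes were. The median size of a difference, without its sign, was 0.85, 0.82 and 1.55 over the 10 members in the 3 comparisons (carotid body with adrenal medulla, carotid body with ganglion, adrenal medulla with ganglion), beside 0.21, 0.23 and 0.23 over all genes. The signed medians were -0.04, -0.14 and 0.11 for the members and 0.05, -0.02 and -0.08 for all genes. The comparisons share arrays and are not independent of each other.

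**Figure D2:**
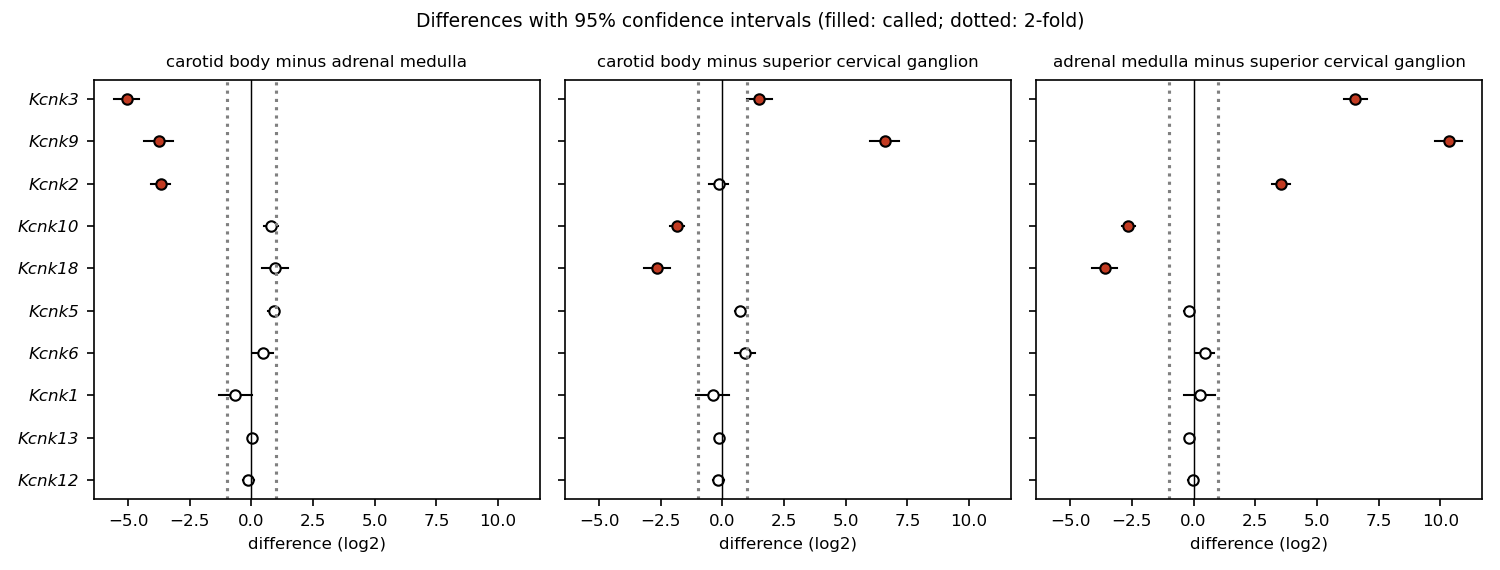
Log2 differences of the 10 channel genes in the 3 comparisons, with bars for the 95% confidence intervals from limma and filled points for called genes; dotted lines mark a 2-fold difference. Kcnk9 spans the widest range, from -3.76 in carotid body against adrenal medulla to 10.34 in adrenal medulla against ganglion.

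The remaining tandem-pore genes of the mouse, Kcnk4, Kcnk7, Kcnk15 and Kcnk16, were low in all 3 tissues. Of these 4 genes, 0 were called in any comparison by limma, and 0 had an unadjusted p under 0.05. Kcnk4, which encodes the TREK family channel TRAAK, averaged 5.88 in carotid body (the 3 arrays hold the same value), 5.78 ± 0.18 (SD, n = 4) in adrenal medulla and 5.97 ± 0.11 (SD, n = 4) in ganglion. Its difference of adrenal medulla from ganglion was -0.19, with a 95% interval of -0.40 to 0.02. Kcnk7, Kcnk15 and Kcnk16 had tissue means between 4.46 and 5.20, under the bound in every tissue.

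Genes that traffic or regulate these channels were counted next, in a list of 28 genes of which 27 were measured. In carotid body 1 was called higher and 2 lower against adrenal medulla, and 1 higher and 7 lower against ganglion. In adrenal medulla 2 were called higher and 8 lower against ganglion. The shares of all genes called higher and lower, in the same order, were 6.06% and 4.95%, 5.61% and 8.28%, and 5.72% and 7.50%. These shares also apply to the lists that follow. Plcb1, a phospholipase C that acts below the Gq-coupled receptors by which hormones and transmitters close TASK channels, ran in the same tissue order as Kcnk3 and Kcnk9. It averaged 10.94 ± 0.30 (SD, n = 4) in adrenal medulla, 8.06 ± 0.13 (SD, n = 3) in carotid body and 6.87 ± 0.22 (SD, n = 4) in ganglion, and adrenal medulla exceeded ganglion 16.8-fold (limma adjusted p = 8.41e-09). Plcb3, another member of that enzyme group, ran the other way, at 9.12 ± 0.09 (SD, n = 4), 10.20 ± 0.57 (SD, n = 3) and 12.06 ± 0.30 (SD, n = 4) in the same tissues. Its difference of carotid body from adrenal medulla (1.07) was not called without carotid body replicate 1 (0.77), with median centring (0.92) or with array weights (0.98). Gnaq and Plcb4, also in the list, shared the tissue order of Plcb3. Their means were 11.43, 11.81 and 12.75, and 11.67, 12.21 and 12.67, in adrenal medulla, carotid body and ganglion. Both were called lower in adrenal medulla than in ganglion, and in no other comparison. The Plcb4 call was lost under several alternatives, such as median centring (-0.92). Gna11 (10.34, 9.86 and 10.35) was called in no comparison, and Plcb2 was under the bound in every tissue.

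Among trafficking partners, Copb1, a coat protein that holds TASK channels in the endoplasmic reticulum, was higher in adrenal medulla than in carotid body (2.24-fold) and ganglion (2.94-fold). Ywhab, a 14-3-3 protein of the family that releases them to the surface, was higher in ganglion than in carotid body (4.66-fold) and adrenal medulla (3.28-fold), as was Ywhag (2.81-fold and 2.52-fold). The other listed genes of that family, Ywhae, Ywhah, Ywhaq, Ywhaz and Sfn, were called in no comparison, and Sfn was under the bound in every tissue. The calcineurin genes Ppp3cb and Ppp3r1, whose product opens TRESK, were higher in ganglion than in carotid body (log2 differences of carotid body from ganglion -1.13 and -1.01). Under repeated quantile normalization these were -0.76 and -0.73 and were not called. The Ppp3r1 difference was also under the limit with array weights and without carotid body replicate 2 or ganglion replicate 3 or 4, at -0.997 to -0.86. In adrenal medulla against ganglion Ppp3cb and Ppp3r1 differed by -0.86 and -0.87 and were not called. Ppp3ca, another calcineurin gene, was called in no comparison. Mark1, a kinase gene also in the list, was called higher in ganglion than in carotid body (2.74-fold) and adrenal medulla (3.28-fold).

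Inward rectifiers, the other potassium channels that act near the resting potential, were led by Kcnj3, a channel opened by G-protein-coupled receptors. Kcnj3 read 12.14, 11.57, 11.41 and 12.07 in ganglion, 8.999, 8.35 and 8.99 in carotid body, and 6.31, 6.14, 5.86 and 5.63 in adrenal medulla, the reverse of the TASK order. Ganglion exceeded adrenal medulla 56.3-fold, and carotid body lay between them with no overlap. Of the 15 inward rectifier genes, carotid body set against adrenal medulla gave 3 called higher and 1 lower (Kcnj6, under the bound in both), against ganglion 0 higher and 2 lower (2 and 6 at an unadjusted p under 0.05), and adrenal medulla against ganglion gave 2 higher and 4 lower. Of those 2, Kcnj6 was again under the bound in both tissues, and it was not called without ganglion replicate 4 (0.997). Without carotid body replicate 3, 4 were called against ganglion, 1 higher and 3 lower. Kcnj10, 1 of the 3 called higher in carotid body against adrenal medulla (1.04), was not called with median centring (0.89) or the replicate block (0.97). Nor was it called without adrenal medulla replicate 2 (0.96) or carotid body replicate 3 (0.97).

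The sodium leak complex opposes the potassium leak, and its 4 measured genes were Nalcn, the pore, with Unc79, Unc80 and Fam155a. Compared with adrenal medulla, Unc79 and Unc80 were called lower in carotid body, by differences of -1.48 and -1.01 (limma adjusted p = 1.15e-05 and 0.00443), and all 4 had an adjusted p under 0.05 in that direction. Unc80 was not called without adrenal medulla replicate 3 (-0.92), carotid body replicate 2 (-0.79) or replicate 3 (-0.91), and was -0.94 with repeated quantile normalization and -0.79 with control features as a covariate. Compared with ganglion, Nalcn alone was called, by -1.30 (limma adjusted p = 0.001), and 3 genes were called without carotid body replicate 1, with array weights, under median centring or with that covariate, and 2 without ganglion replicate 2 or with the replicate block. Carotid body replicate 1 was the highest of its group for Nalcn (9.96 against 9.30 and 9.27) and for Unc80 (10.82 against 9.77 and 10.01).

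**Figure D3:**
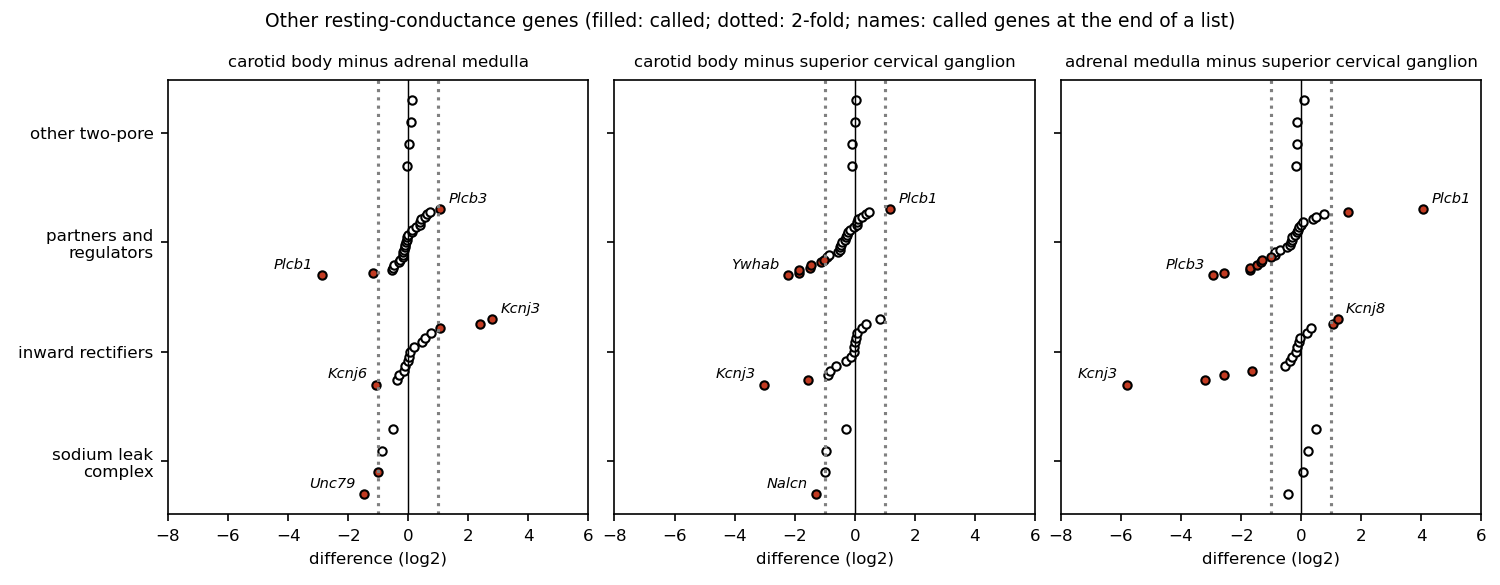
Log2 differences of the other tandem-pore genes (4), channel partners and regulators (27), inward rectifiers (15) and sodium leak genes (4) in the 3 comparisons; each point is a gene, filled points were called and dotted lines mark 2-fold. Plcb1 stands at 4.07 and Kcnj3 at -5.82 in adrenal medulla against ganglion.

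Genes whose profile over the 11 arrays lay nearest to each called member were found by the root mean square distance between log2 profiles, each centred on the mean of its tissue means. The distance is not scaled, so a member of wide tissue range, such as Kcnk9, tends to lie far from other genes. For Kcnk3 the nearest protein-coding gene was Chga, the gene of chromogranin A in secretory granules (distance 0.37), followed by Sytl5 (0.43), Slc6a4, the serotonin transporter (0.46), Fosl2 (0.49) and F2r, the thrombin receptor (0.49). The means of Chga were 19.72, 14.84 and 12.87 in adrenal medulla, carotid body and ganglion. No gene lay as near to Kcnk9, whose closest was Adh1, an alcohol dehydrogenase, at 0.91; the endothelial genes Emcn and Plvap came next at 1.74 and 1.81, then Dlk1 at 1.82 and Adgrl4 at 1.95. For Kcnk2 the nearest were Ak5 (0.17), Vdr, the vitamin D receptor (0.30), 4933403O08Rik (0.30), Akr1b10 (0.30) and Scgn, the calcium sensor secretagogin (0.31).

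The ganglion-high members had closer neighbours than Kcnk3 and Kcnk9. Their tissue ranges were also narrower, at 2.65 for Kcnk10 and 3.61 for Kcnk18 against 6.55 and 10.34, so the distances cannot be compared between members. Kcnk10 lay nearest to Colq, the collagen tail of acetylcholinesterase (0.12), then to Cacnb4, a calcium channel subunit (0.13), Oxct1, a ketone body enzyme (0.15), Stmn4 (0.15) and Nxn (0.15). Kcnk18 lay nearest to Frmpd4 (0.15), Trim36 (0.20), Kcnh1, a voltage-gated potassium channel (0.20), Crtac1 (0.22) and Hpcal4 (0.23). These distances rest on 11 arrays in 3 tissues.

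Markers of other cells moved with the tissues too. All 9 measured adrenal cortex markers were called higher in adrenal medulla than in both other tissues, and their mean level was 15.45 to 15.80 on those arrays while the carotid body arrays read 5.51 to 5.87 and the ganglion arrays 5.42 to 5.83. In carotid body 5 of the 9 were under the bound (Cyp11b1, Star, Hsd3b1, Nr5a1 and Mc2r). TASK and TREK channels are also known in cortex cells, and the part of the cortex in the Kcnk3, Kcnk9 and Kcnk2 levels was not tested. Of 5 markers of the outer cortex, 1 was called higher and 1 lower in adrenal medulla when set against carotid body, and 2 higher and 1 lower against ganglion. Vsnl1 was the lower one in both (means 7.57, 9.18 and 12.65 in adrenal medulla, carotid body and ganglion), and Agtr1b, the angiotensin receptor, was called in neither (5.92, 6.11 and 5.90). Cyp11b2, the aldosterone synthase, was the marker called higher in both. It read 8.32, 9.24, 9.70 and 11.46 on adrenal medulla replicates 1 to 4, a span of 3.14. The mean over the 5 markers was 7.26, 7.34, 7.63 and 8.56 on the same arrays. The part of the outer cortex in the channel levels was not tested.

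The 7 measured markers of catecholamine-making cells, were above the bound in every tissue. In carotid body 5 of them were called lower against adrenal medulla and 0 higher (1 at an unadjusted p under 0.05 by limma), and 2 higher and 3 lower against ganglion. In adrenal medulla against ganglion 3 were called higher (Chga, Chgb and Scg2) and 2 lower (Ddc and Slc18a2). Their mean level was 17.80 to 17.99 in adrenal medulla, 15.76 to 16.32 in ganglion, and 16.13, 15.03 and 15.60 on carotid body replicates 1 to 3. Of 10 neuron markers, 10 were called higher in ganglion than in carotid body and in adrenal medulla, and 7 passed as higher in carotid body when compared with adrenal medulla. Their mean was 14.88 to 15.32 in ganglion, 12.87, 10.83 and 11.92 on carotid body replicates 1 to 3, and 9.04 to 9.51 in adrenal medulla. The ganglion-high members Kcnk10 and Kcnk18 share that order. On the carotid body arrays Kcnk10 differed by 0.12 and Kcnk18 by 0.16 between highest and lowest. Their means there, 5.83 and 5.45, lie near the bound of 5.38, so these small spans cannot be read against the spread of the neuron markers. Of 7 measured glia markers, 6 were called lower in adrenal medulla against ganglion and 6 higher in carotid body against adrenal medulla, with a mean of 7.94 to 8.13 on the adrenal medulla arrays, 10.50 to 10.83 on those of carotid body and 10.19 to 10.89 on those of ganglion. Fabp7 among them had the tissue order of Kcnk10 and Kcnk18 (10.18, 13.71 and 15.24 in adrenal medulla, carotid body and ganglion), as had S100b by its means. Cdh19, Sox10, Foxd3 and Erbb3 had their highest mean in carotid body instead, and Gfap had its highest in adrenal medulla. The part of neuron and glia content in the Kcnk10 and Kcnk18 levels was not tested.

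The carotid body arrays also stood apart by markers of its connective tissue. All 7 fibroblast and all 5 adipocyte markers were called higher there than in both other tissues, as were 7 of 7 mural cell markers against ganglion and 6 of 7 against adrenal medulla. The fibroblast mean was 13.84 to 13.98 in carotid body, 8.42 to 8.54 in adrenal medulla and 10.22 to 10.46 in ganglion. Endothelium markers averaged 10.68 to 10.75 in carotid body and 10.40 to 10.72 in adrenal medulla but 7.20 to 7.47 in ganglion. The near-equal means of the first pair hold members that differed both ways: 4 of 7 were called higher in carotid body (Pecam1, Cdh5, Vwf and Cldn5) and 3 lower (Kdr, Tek and Emcn, by 2.69-fold to 4.69-fold). Their part in the levels of the channel genes was not tested. Over the series, array medians of the tested genes lay between 5.63 and 5.84, and 54.3% to 56.6% of genes were above the bound in a tissue.

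**Figure D4:**
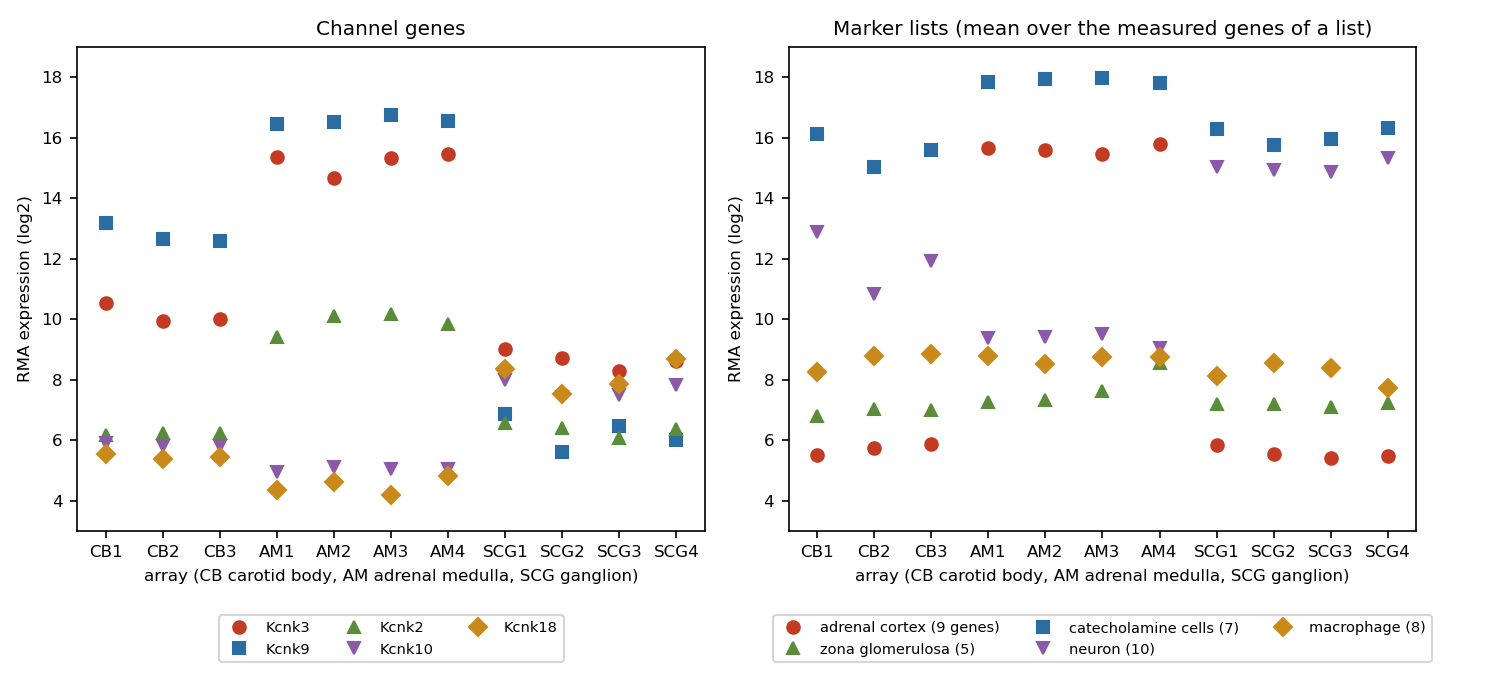
Log2 expression of the 5 called channel genes (left) and the mean log2 level of 5 marker lists (right) on each array, carotid body (CB), adrenal medulla (AM) and ganglion (SCG); each point is 1 array. The cortex markers stand at 15.45 to 15.80 on the adrenal medulla arrays and at 5.42 to 5.87 elsewhere, and the neuron markers run from 10.83 to 12.87 among the carotid body arrays.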

How the data were processed

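Gene expression was measured on 11 arrays, 1 per pool, of 3 mouse tissues. Per the labels' protocols, total RNA was purified by an RNeasy Micro column and amplified with WT PLUS reagents for an Affymetrix array. The deposited log2 values were made by the authors through RMA (Expression Console, in the submitters' processing notes). Versions, annotation release and genome build are not given in the sources used here. RMA corrects background, gives arrays a common distribution and summarises probes, so differences are relative within that distribution. The log base is taken as 2, as RMA uses it, and values reach 19.93, so folds hold on the scale of the deposited values. No raw scans were analysed here, and the number of arrays limits the precision.

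Of the array's rows, 30607 carry 1 symbol, and the brightest row per gene left 30145 genes. No member had a second row. Tissue was the only factor in 1 fit over all arrays (limma 3.58.1, R 4.3.3), first tested on simulated data. Adjusted p-values are from limma over all genes. For folds, arrays under the background bound were set to it, and such a fold is given as "at least". The members, lists and alternatives were chosen with earlier results of these data known. Genes outside the family were chosen by rule: up to 4 called genes of largest difference per list and comparison, and the 5 nearest protein-coding profiles of each called member. Not every gene that the rule gave for the lists is named in the text. Kcnk4, Kcnk7, Kcnk15, Kcnk16, Ppp3cb, Ppp3r1, Fam155a, Nr5a1, Mc2r, Agtr1b and Ddc fall outside the rule and were named after their values were seen. So do Ppp3ca, Plcb2, Plcb4, Gnaq, Gna11, Ywhae, Ywhah, Ywhaq, Ywhaz, Sfn, Sox10, Foxd3 and Gfap. Alternatives were array scaling, filters, gene sets, the variance prior, array weights, the replicate block, each array left out and, added after seeing the data, control features as a covariate.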

Additional observations from a re-analysis of the deposited data

Results flagged for a closer look

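Of 20 groups of 4 arrays examined (10 genes in adrenal medulla and in ganglion), 2 held an array far from the other 3, where chance gives about 1 in 20. Kcnk3 was lowest on adrenal medulla replicate 2, at 14.67, while the other adrenal medulla arrays read 15.34 to 15.45. It was still above every carotid body and ganglion array. Kcnk5 was highest on ganglion replicate 2, at 6.47, while the other ganglion arrays read 6.29 to 6.31. That array was above all adrenal medulla arrays, the highest of which read 6.37, and below all carotid body arrays.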

How the results depend on the processing

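Over all alternatives, 3 to 4 members were called in carotid body against adrenal medulla, 4 to 5 between carotid body and ganglion, and 5 between adrenal medulla and ganglion, and no member's call was lost. Of 597 values of single members under an alternative, 584 kept their direction and call, 6 became calls (Kcnk18, Kcnk1 and Kcnk6) and 7 changed sign. The sign changes were of genes that were not called: Kcnk13 in carotid body against adrenal medulla (-0.11 with median centring and -0.105 with repeated quantile normalization) and Kcnk12 in adrenal medulla against ganglion (0.054, 0.092, 0.017 and 0.17 with median centring, quantile normalization, array weights and the covariate, and -0.078 to 0.051 over the arrays left out). Median centring moved the median of all genes in carotid body against adrenal medulla from 0.05 to -0.10. Same-numbered pools did not deviate together (correlations of their deviations from -0.17 to 0.25, 1 of 10 over 0.1), and the replicate block called 4 members in carotid body against adrenal medulla, the added one being Kcnk18 (1.11). Leaving out 1 array at a time kept Kcnk9 in carotid body against ganglion between 6.36 and 6.79, and Kcnk3 between 1.32 and 1.62. The filter on dim genes left 9 members, since Kcnk12 was under the bound throughout. Levels near the bound, as for Kcnk18 in carotid body, cannot be told from background.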

Other observations

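Some values repeat exactly, to the 5 decimals of the deposited values, between arrays. Kcnk12 had 8 distinct values on 11 arrays, with 4 arrays sharing a value, and Kcnk6 and Kcnk13 had 10 each, while the other 7 members had 11. Over the series 55.5% of genes held such a repeat, 72.4% of the 12381 genes under the bound in all 3 tissues and 43.7% of the 17764 others.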
